A study of Mus musculus with 222 samples.

Results

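The 7 genes described here, Adgra2, Amotl1, Bend4, Ptprf, Ptprs, Sdc3 and Serpine2, are 7 of the 24391 gene symbols counted in mouse primordial germ cells (PGCs), from which eggs and sperm later form. They were chosen by their measured values: each was higher in Eed-deleted than in Control PGCs in both sexes at E11.5 (embryonic day), so their E11.5 values are given as a description with no test. Of 10915 genes tested in both E11.5 tables, 11 were called higher in both, and the other 4 were Abca1, Ccnd1, Hand1 and Tdrd1. The libraries of E13.5 and the single cells of E12.5 took no part in the choice and were tested.

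The study asked what EED does in PGCs of the embryonic gonad. ECKO (labelled Eed -/-) and Control (labelled wild type) embryos came from 1 cross, of OG; Eed fl/fl females with BC; Eed fl/+ males. Every embryo, Controls included, therefore inherited a floxed Eed allele from its mother, and all were of mixed C57BL/6;129S1/SvlmJ strain. OG is a green fluorescent reporter driven by the Oct4 (Pou5f1) gene, by which PGCs were sorted from trypsin-digested gonads, and BC is a Cre driven by Blimp1 (Prdm1), a gene switched on as PGCs are specified. The bulk libraries were 4 ECKO and 4 Control of XY embryos at E11.5, 4 ECKO and 3 Control of XX embryos at E11.5, and 3 ECKO and 4 Control of XY embryos at E13.5. At E12.5, 48 cells of 2 ECKO embryos and 48 cells of 2 Control embryos were sequenced in each sex, and the embryos of a group are called A and B here. The labels do not say whether a bulk library is 1 embryo or a pool, so p-values measure the spread between libraries as labelled.

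The EED protein belongs to the core of PRC2, the Polycomb complex that places methyl groups on lysine 27 of histone H3 and keeps genes of other lineages silent, often genes with CpG-rich promoters. PGCs at these stages have reached the gonad and are about to take a female or male course. Most of the 7 genes encode proteins of the cell surface and its surroundings. Ptprf (LAR) and Ptprs are receptor tyrosine phosphatases of 1 family, and heparan sulphate proteoglycans are ligands of Ptprs. Sdc3 (syndecan 3) is such a proteoglycan, spanning the cell membrane. Serpine2 (protease nexin 1) is a secreted inhibitor of thrombin, plasmin and related serine proteases that binds heparin. Adgra2 (Gpr124) is an adhesion G protein-coupled receptor that, with Reck, lets brain endothelial cells respond to Wnt7a and Wnt7b. Amotl1 is a relative of angiomotin, a junction scaffold that binds the Hippo pathway effector Yap1, and Bend4 encodes a protein with a BEN domain, a fold found in DNA-binding and chromatin proteins.

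The RefSeq promoter table (build GRCm38.p6) held 7 promoters for 6 of the 7 genes, each of 300 bases from 250 before to 50 after the annotated start. Adgra2 had no entry. The promoters of 4 genes are shown as examples: those of Ptprf and Serpine2, whose rise at E13.5 passed the test, and those of Sdc3 and Amotl1, whose E13.5 difference did not. Capitals mark each CG pair.
Ptprf, chr4:118291348-118291647, minus strand: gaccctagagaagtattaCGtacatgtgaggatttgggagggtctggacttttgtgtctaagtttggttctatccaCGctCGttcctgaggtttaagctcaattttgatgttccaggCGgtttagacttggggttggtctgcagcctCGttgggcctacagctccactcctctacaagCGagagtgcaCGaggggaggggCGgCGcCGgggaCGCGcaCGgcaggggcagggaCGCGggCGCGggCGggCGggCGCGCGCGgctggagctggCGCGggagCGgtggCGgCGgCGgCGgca
Serpine2, chr1:79858616-79858915, minus strand: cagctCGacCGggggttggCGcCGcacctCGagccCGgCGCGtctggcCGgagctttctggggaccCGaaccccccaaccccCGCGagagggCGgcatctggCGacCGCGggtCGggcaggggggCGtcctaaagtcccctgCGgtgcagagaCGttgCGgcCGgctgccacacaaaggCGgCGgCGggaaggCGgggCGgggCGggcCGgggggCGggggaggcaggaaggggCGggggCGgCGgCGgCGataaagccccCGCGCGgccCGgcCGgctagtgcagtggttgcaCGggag
Sdc3, chr4:130792287-130792586, plus strand: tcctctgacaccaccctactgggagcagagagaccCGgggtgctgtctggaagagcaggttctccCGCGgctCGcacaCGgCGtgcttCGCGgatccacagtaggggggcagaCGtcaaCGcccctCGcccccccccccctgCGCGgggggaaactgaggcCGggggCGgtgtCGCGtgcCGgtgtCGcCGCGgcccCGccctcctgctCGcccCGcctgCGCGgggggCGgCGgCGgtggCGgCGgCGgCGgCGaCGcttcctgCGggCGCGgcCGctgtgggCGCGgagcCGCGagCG
Amotl1, chr9:14614951-14615250, minus strand: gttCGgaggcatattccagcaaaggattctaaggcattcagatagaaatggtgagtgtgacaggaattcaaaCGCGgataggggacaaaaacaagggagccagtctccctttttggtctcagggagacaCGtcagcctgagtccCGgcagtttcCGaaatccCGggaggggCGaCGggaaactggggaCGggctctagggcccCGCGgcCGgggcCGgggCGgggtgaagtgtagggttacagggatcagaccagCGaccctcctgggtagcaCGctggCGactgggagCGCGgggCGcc
CG pairs numbered 44 in the Sdc3 promoter, 41 in that of Serpine2, 30 in that of Ptprf, 27 in that of Bend4 and 21 in that of Amotl1. The 2 promoters of Ptprs held 18 and 21. The median over all 32851 promoters of the table was 7, and 29.7% of them held at least 18. The sequence GGGCGG, searched on both strands and itself containing a CG pair, was present in 6 of the 7 promoters and in 35.7% of all. CACGTG, which reads the same on both strands and also contains a CG pair, was found in 1, a Ptprs promoter at chr17:56476431-56476730 on the minus strand with 3 copies, against 7.15% of all. TATAAA, searched on both strands, was in none of the 7 and in 13.6% of all. These matches describe the letters of these windows only.

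Libraries were compared in CPM, the counts of a gene brought to a common library total, with edgeR's TMM factors applied to the totals. E11.5 XY libraries summed to 8607927 to 13139650 counts in ECKO and 9112396 to 14974853 in Controls, and the E13.5 XY libraries 8887996 to 10086715 in ECKO and 4903492 to 12425911 in Controls. The E11.5 XX libraries were shallower, with 1323850 to 7559310 counts in ECKO and 415291 to 3088644 in Controls. At E13.5, ECKO 1 and Control 3 had counts for 12839 and 11716 genes, against 13900 to 15574 in the other 5 libraries. Eed itself was lower in every ECKO library than in all Controls of the same table: 16.5 to 49.3 against 81.0 to 144 CPM in E11.5 XY, 12.4 to 27.5 against 76.6 to 88.8 CPM in E11.5 XX, and 2.97 to 12.6 against 57.5 to 119 CPM in E13.5 XY. At E12.5 the sums over the cells of an embryo gave 13.98 and 21.9 CPM in XX ECKO against 59.2 and 62.0 CPM in XX Controls, and 21.6 and 7.10 CPM in XY ECKO against 40.7 and 52.6 CPM in XY Controls. All 13 germ cell markers (Dazl, Ddx4, Dppa3 and others) had counts in each bulk library except 1 E13.5 Control, which had 12.

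At E11.5 the 7 genes were higher in ECKO PGCs of both sexes by the rule that chose them. The median log2 fold change was 1.88 in XY and 2.46 in XX, against 0.0016 and 0.026 over all genes tested. Of all genes tested, 1.51% were called higher in XY (189 of 12497) and 0.136% in XX (15 of 11058), at an adjusted p under 0.05 by edgeR's quasi-likelihood test with Benjamini-Hochberg adjustment. The 7 are among those by selection, and nothing is read from that count. Sdc3 lay just inside the threshold, with the larger of its 2 adjusted p-values at 0.0446 by edgeR, and Ptprs was next at 0.0432. Just outside stood Ece1 (0.0562), C77370 (0.0567) and Nrp2 (0.0664), each also higher in both sexes.

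Of the phosphatase receptors, Ptprf separated the groups evenly and Ptprs less so. Ptprf had 175, 148, 157 and 176 CPM in the XY ECKO libraries, against 52.2, 37.9, 43.5 and 45.2 CPM in XY Controls. In XX it had 149, 200.4, 112 and 145 CPM in ECKO, against 45.1, 29.2 and 54.6 CPM in Controls. The groups did not overlap in either sex, and the log2 fold change was 1.88 (SE 0.17) in XY and 1.82 (SE 0.30) in XX. Ptprs had 92.5, 108, 85.0 and 157 CPM in XY ECKO against 45.8, 66.9, 39.8 and 40.4 CPM in XY Controls. In XX, Ptprs had 129.6, 133, 102 and 312 CPM in ECKO, against 20.04, 29.2 and 44.4 CPM in Controls. Its groups did not overlap, with a log2 fold change of 1.20 (SE 0.24) in XY and 2.36 (SE 0.42) in XX, and its highest values in both sexes were in ECKO 4.

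Sdc3 was the one gene of the 7 whose groups overlapped in a bulk table at E11.5. All 7 were chosen on these values, which favours groups that do not overlap, so nothing is read from their separation at E11.5. It had 20.3, 48.4, 45.7 and 66.2 CPM in XY ECKO, against 16.04, 7.58, 23.998 and 7.40 CPM in XY Controls, where Control 3 lay above ECKO 1. In XX it had 72.1, 62.0, 40.5 and 72.1 CPM in ECKO against 15.03, 9.49 and 10.9 CPM in Controls, with no overlap. Serpine2, the secreted protease inhibitor, was low in each Control library. It had 39.0, 50.8, 42.5 and 67.3 CPM in XY ECKO against 8.32, 5.43, 2.58 and 2.78 CPM in XY Controls. In XX it had 47.2, 51.2, 65.0 and 58.1 CPM in ECKO against 10.02, 3.39 and 7.80 CPM in Controls. The lowest ECKO value stood several times above the highest Control value in both sexes, and the log2 fold change was 3.40 (SE 0.41) in XY and 3.07 (SE 0.46) in XX.

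Adgra2, the Wnt7 co-receptor, was also nearly silent in most E11.5 Controls. It had 36.4, 37.4, 21.6 and 46.3 CPM in XY ECKO against 13.8, 2.04, 1.74 and 1.97 CPM in XY Controls. In XX it had 38.9, 55.1, 34.4 and 74.4 CPM in ECKO against 2.51, 6.10 and 1.36 CPM in Controls. No groups overlapped, and Control 1 stood well above the other XY Controls. The log2 fold change was 2.87 (SE 0.61) in XY, 4.22 without Control 1, and 3.95 (SE 0.61) in XX. Amotl1 had 67.2, 58.9, 52.8 and 112 CPM in XY ECKO against 23.2, 30.0, 13.6 and 13.2 CPM in XY Controls. In XX, Amotl1 had 77.1, 62.7, 70.6 and 187 CPM in ECKO against 22.5, 12.2 and 10.2 CPM in Controls. ECKO 4 was highest in both sexes, and the groups did not overlap. Bend4 had 175, 248, 204 and 248 CPM in XY ECKO against 90.6, 38.6, 33.5 and 59.7 CPM in XY Controls. In XX, Bend4 had 368, 311, 255 and 204 CPM in ECKO against 80.2, 82.7 and 101 CPM in Controls, again with no overlap, and here ECKO 4 was the lowest.

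**Figure D1:**
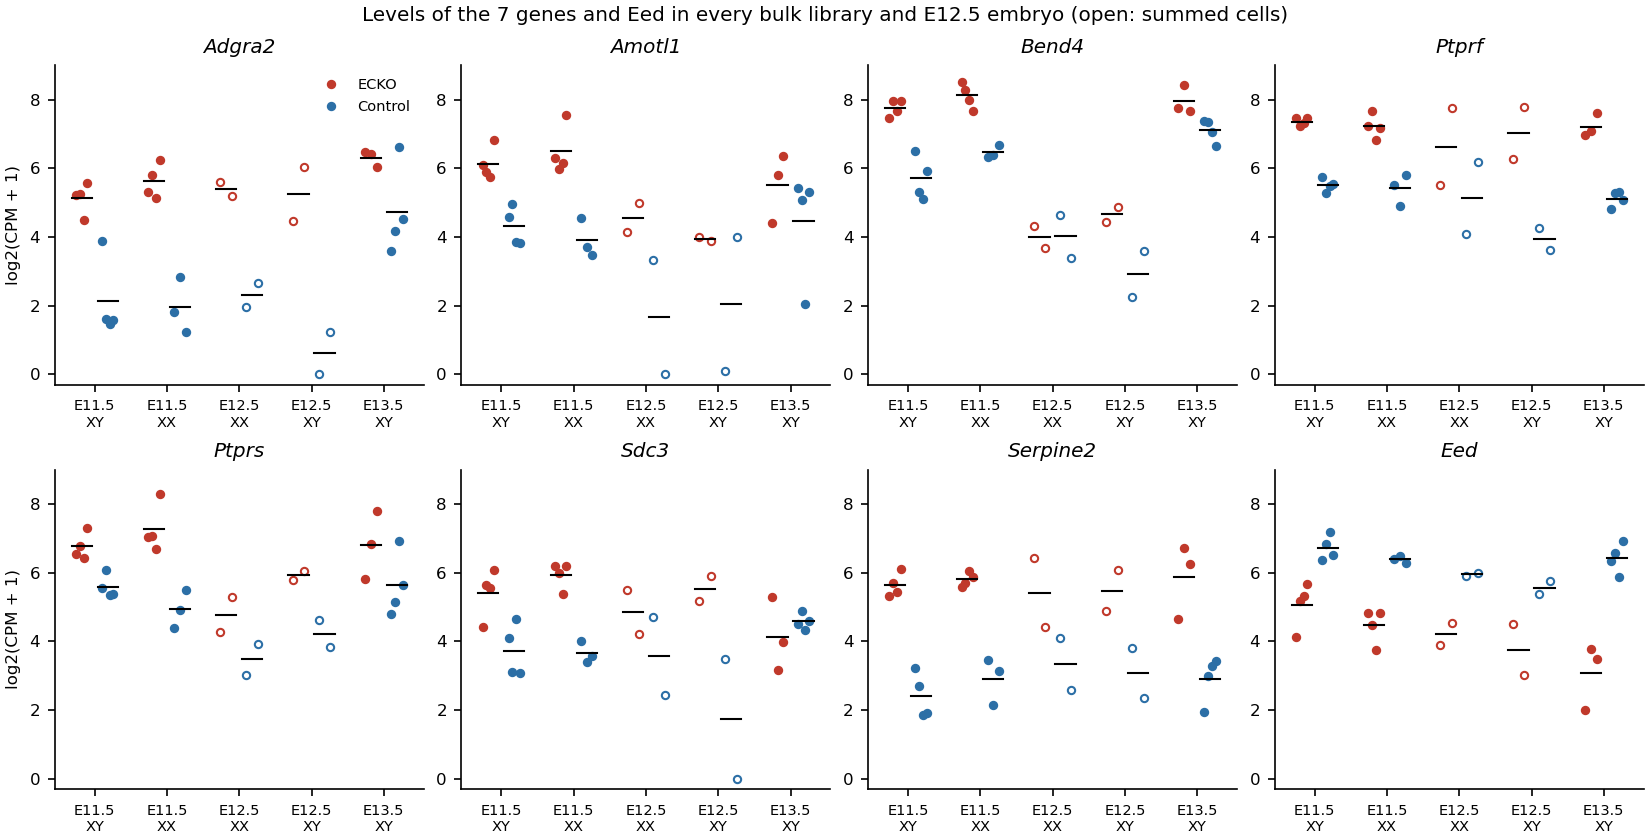
Level of each of the 7 genes and of Eed, as log2(CPM + 1), in every bulk library (filled points) and in the summed cells of every E12.5 embryo (open points), ECKO left of Control within each stage and sex. Black lines are means of the plotted log2 values. Serpine2 and Ptprf separate ECKO from Control at E11.5, where the genes were chosen, and at E13.5. Sdc3 overlaps at E13.5 with 7.99 to 37.7 CPM in ECKO against 19.2 to 28.4 CPM in Controls, and Eed runs the other way.

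In each sex at E11.5, ECKO 4 stood apart in interstitial and endothelial markers. The summed level of the 15 interstitial markers (Pdgfra, Col1a1, Dcn and others) was 640 CPM in XY ECKO 4, against 50.3 to 128 CPM in the other 3 XY ECKO libraries and 44.5 to 156 CPM in XY Controls. In XX ECKO 4 it was 1519 CPM, against 55.7 to 211 CPM in the other 3 ECKO libraries and 40.8 to 177 CPM in Controls. All 15 markers had counts in XY ECKO 4 and 14 in XX ECKO 4. The 9 endothelial markers summed to 271 CPM in XY ECKO 4, against 26.8 to 70.7 CPM in the other XY ECKO libraries and 23.3 to 81.7 CPM in XY Controls. In XX ECKO 4 they summed to 409 CPM, against 31.7 to 59.5 CPM in the other XX ECKO libraries and 21.7 to 113 CPM in XX Controls. The germ cell markers were lowest in the same libraries, at 3086 CPM in XY ECKO 4 against 3561 to 3611 CPM in the other XY ECKO libraries and 3464 to 4320 CPM in XY Controls, and at 2156 CPM in XX ECKO 4 against 3219 to 4154 and 3479 to 4351 CPM. Supporting cell markers summed to 74.9 CPM in XY ECKO 4, inside the XY Control range. In XX ECKO 4 they summed to 204 CPM, the highest XX value. Coelomic and mesonephric epithelium markers summed to 68.8 CPM in XY ECKO 4, the highest XY value. In XX ECKO 4 they summed to 18.2 CPM, the lowest XX ECKO value. Blood and nerve markers were highest in another library in both sexes. Of the 7 genes, 6 had their highest XY ECKO value in ECKO 4, all but Bend4, and 4 had their highest XX ECKO value in XX ECKO 4. Without ECKO 4 the median log2 fold change was 1.85 in XY and 2.39 in XX, and that of single genes ran from 0.99 (Ptprs) to 3.22 (Serpine2) in XY and from 1.82 (Bend4) to 3.70 (Adgra2) in XX. The summed level of 10 immediate early and heat shock genes (Fos, Egr1, Hspa1a and others) was 402 to 712 CPM in XY ECKO, against 171 to 289 CPM in XY Controls, and 280 to 690 against 99.4 to 238 CPM in XX. The part of these markers in the levels of the 7 genes was not tested beyond the values without ECKO 4. In a bulk sample, fewer cells with a transcript and less of it per cell cannot be told apart.

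At E13.5, in XY PGCs alone, Ptprf and Serpine2 rose in ECKO and the other 5 did not pass the test. Of the 7, 2 were called higher and none lower by edgeR's quasi-likelihood test with Benjamini-Hochberg adjustment, against 2.99% of all genes tested called higher (369 of 12336). The median log2 fold change of the 7 was 1.10, against 0.049 over all genes. In 3 of the 7 (Bend4, Ptprf and Serpine2) every ECKO value lay above every Control value, which held for 12.2% of all genes.

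Ptprf had 123, 135 and 193 CPM in E13.5 ECKO against 27.2, 37.8, 38.8 and 32.7 CPM in Controls. Its lowest ECKO value was well above its highest Control value. The log2 fold change was 2.14 (SE 0.33) with an edgeR adjusted p of 0.0090, and leaving out each library in turn kept the adjusted p between 0.0029 and 0.0440. Ptprs, of the same family, had 54.8, 113 and 219 CPM in ECKO against 26.6, 34.5, 119.6 and 49.1 CPM in Controls. Control 3 lay above 2 of the 3 ECKO libraries, and the log2 fold change of 1.18 (SE 0.56) had an edgeR adjusted p of 0.231.

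Serpine2 had 24.1, 105 and 75.2 CPM in E13.5 ECKO against 2.83, 6.94, 8.68 and 9.69 CPM in Controls. ECKO 1 was the lowest of the 3 and still above all 4 Controls. The log2 fold change was 3.28 (SE 0.61) with an edgeR adjusted p of 0.0149. The call was lost without Control 4 (adjusted p = 0.0509), without ECKO 2 (0.0876) or without ECKO 3 (0.0592), while the log2 fold change stayed between 2.82 and 3.65. Sdc3, with 37.7, 7.99 and 14.6 CPM in ECKO against 21.5, 28.4, 19.2 and 23.2 CPM in Controls, was the only one of the 7 without a positive E13.5 fold change. ECKO 1 was above and the other ECKO libraries below all 4 Controls, with a log2 fold change of -0.20 (SE 0.60, edgeR adjusted p = 0.880) that was 0.18 without ECKO 2. The interval of 1 SE spans 0, and a difference was not detectable with these libraries.

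Adgra2 had 87.9, 84.7 and 64.4 CPM in E13.5 ECKO against 11.1, 17.1, 98.2 and 22.1 CPM in Controls. Control 3 was above all 3 ECKO libraries and the other Controls far below them. The log2 fold change was 1.10 (SE 0.64) with an edgeR adjusted p of 0.331, and 2.31 with an adjusted p of 0.0130 without Control 3. Amotl1 had 20.1, 55.4 and 80.5 CPM in ECKO against 41.8, 32.8, 3.18 and 38.4 CPM in Controls. ECKO 1 and Control 3, the libraries with the fewest detected genes, were the lowest of their groups, and the log2 fold change was 0.85 (SE 0.71, edgeR adjusted p = 0.512). Bend4 had 217, 344 and 202 CPM in ECKO against 165, 163, 133 and 98.6 CPM in Controls. Its groups did not overlap, but the log2 fold change of 0.86 (SE 0.32) had an edgeR adjusted p of 0.139.

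With ECKO 1 and Control 3 left out together, an alternative chosen after seeing the data, 5 of the 7 were called higher by edgeR, namely Adgra2, Bend4, Ptprf, Ptprs and Serpine2, against 14.8% of all genes (1965 of 13241). The log2 fold change was then 2.19 for Adgra2, 2.21 for Ptprs and 3.85 for Serpine2, and -1.08 for Sdc3 (adjusted p = 0.117). At E13.5 the summed interstitial markers were 151 to 419 CPM in ECKO and 123 to 190 CPM in Controls. Of these 15, 7 were tested and 4 had a positive log2 fold change. Mfap4 (log2 fold change 3.43) and Pdgfra (4.65) of that list were called higher, where 2.99% of all genes were. Supporting cell markers summed to 211 CPM in Control 3, from 4 of 15 markers with a count, against 31.4 to 45.2 CPM in ECKO and 7.24 to 69.7 CPM in the other Controls. The 9 endothelial markers summed to 6.98, 34.4 and 25.8 CPM in ECKO against 4.91 to 7.66 CPM in Controls. The 8 markers of the coelomic and mesonephric epithelium summed to 29.3 to 37.6 CPM in ECKO (median 35.7) against 16.5 to 68.3 CPM in Controls (median 58.0). Of these, 3 were tested and 2 had a positive log2 fold change, and Krt19 was called higher (edgeR adjusted p = 0.0430). The germ cell markers summed to 2539 to 3365 CPM in ECKO against 3854 to 4628 CPM in Controls. Of these 13, 4 had a positive log2 fold change, and Mael was called higher (2.15, edgeR adjusted p = 0.0096). The part of these markers in the levels of the 7 genes was not tested.

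**Figure D2:**
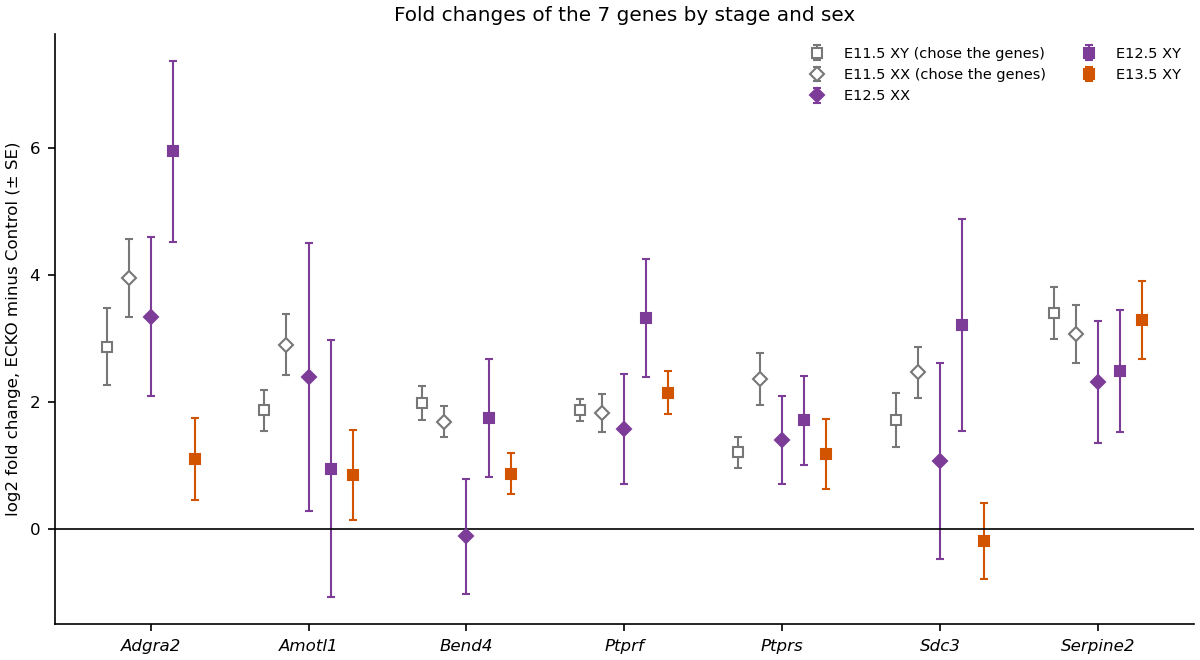
Log2 fold change, ECKO minus Control, with its SE, of each of the 7 genes in the 5 comparisons of stage and sex. Open grey symbols are the E11.5 comparisons on which the genes were chosen, and filled symbols are the comparisons that took no part in the choice. At E13.5 (orange) Ptprf (2.14) and Serpine2 (3.28) passed the test, and Sdc3 lies at -0.20.

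Ordered by mean level over the 6 bulk groups, Amotl1, Bend4, Ptprf, Ptprs and Serpine2 had the 3 ECKO groups above the 3 Control groups, and for Bend4, Ptprf and Serpine2 the lowest ECKO and the highest Control group of that order did not overlap. Ptprf averaged 164 ± 13.46, 152 ± 36.5 and 150.2 ± 37.1 CPM in E11.5 XY, E11.5 XX and E13.5 XY ECKO, against 44.7 ± 5.92, 43.0 ± 12.9 and 34.1 ± 5.34 CPM in the matching Controls (SD, n = 3 or 4). Neighbouring ECKO groups overlapped, as did neighbouring Control groups. For Bend4 the E13.5 Controls (140.0 ± 31.3 CPM) stood above the E11.5 Controls of either sex (87.9 ± 11.2 CPM in XX and 55.6 ± 26.0 CPM in XY). For Adgra2 the E13.5 Controls (37.1 ± 41.0 CPM) came between ECKO groups, and for Sdc3 the E13.5 Controls (23.1 ± 3.90 CPM) stood above the E13.5 ECKO libraries (20.1 ± 15.6 CPM), with overlapping ranges in both cases. Tables were scaled separately, so levels set across them carry that limit. The E11.5 groups in this order are those on which the genes were chosen, so their part of it was set by the choice. No share over all genes was computed for this order, and nothing is read from it.

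At E12.5 the summed cells of each embryo gave higher levels of all 7 genes in ECKO when both sexes were averaged, but none passed the test. Of 192 cells, 127 passed a minimum of 50000 counts and 1500 detected genes. Each embryo gave 13 to 22 such cells, and their median depth was 1310080 counts over 7056 genes. Fitted over the 8 embryos, the median log2 fold change of the 7 was 2.13, against 0.139 over all 13956 genes tested. By edgeR's quasi-likelihood test with Benjamini-Hochberg adjustment, 0 of the 7 were called, against 0.437% of all genes called higher (61 of 13956). Higher in ECKO at an unadjusted p under 0.05 were 4 of the 7, against 11.4% of all genes, and DESeq2 called 4 higher (Adgra2, Ptprf, Ptprs and Serpine2), against 6.71% of all genes. Adgra2 came closest, at 4.64 (SE 0.95, edgeR adjusted p = 0.0559), followed by Ptprf at 2.45 (SE 0.63, 0.0987), Serpine2 at 2.40 (SE 0.68, 0.126) and Ptprs at 1.55 (SE 0.49, 0.160). Each fit that left out 1 embryo kept a single embryo in 1 group, assumed to vary like the other groups, so only its fold changes are given. The log2 fold change ran from 1.68 to 3.18 for Ptprf and from 1.73 to 2.95 for Serpine2. For Ptprs it ran from 1.24 to 1.85 and for Bend4 from 0.55 to 1.31. It was at least 4.14 for Adgra2, at least 1.64 for Sdc3 and at least 1.18 for Amotl1. In 3 of these fits the Control embryo left alone was at 0 CPM: Amotl1 without XX Control A, Sdc3 without XY Control A and Adgra2 without XY Control B. The fitted fold change there has no meaning as a size and is not given.

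The summed cells also differed in markers. The 15 interstitial markers summed to 16.0045 and 317 CPM in XX ECKO against 7.48 and 13.3 CPM in XX Controls, and to 1.72 and 9.68 CPM in XY ECKO against 1.35 and 8.12 CPM in XY Controls, as lowest and highest embryo. The 15 supporting cell markers summed to 52.1 and 151 CPM against 13.8 and 34.2 CPM in XX, and to 28.3 and 29.9 CPM against 31.7 and 40.5 CPM in XY, ECKO before Control. The germ cell markers summed to 3336 and 4096 CPM in XX ECKO against 8038 and 8558 CPM in XX Controls, and to 6303 and 7438 CPM in XY ECKO against 7952 and 9171 CPM in XY Controls. The 8 coelomic and mesonephric epithelium markers summed to 27.5 and 38.9 CPM in XX ECKO against 24.3 and 82.5 CPM in XX Controls, and to 118 and 183 CPM in XY ECKO against 81.7 and 86.2 CPM in XY Controls. Of these, 4 were tested in the averaged fit and 2 had a positive log2 fold change. These 2, Krt19 (edgeR adjusted p = 0.0218) and Krt7 (0.0330), were called higher. The 10 immediate early and heat shock genes summed to 936 and 2059 CPM in XX ECKO against 563 and 1074 CPM in XX Controls, and to 335 and 464 CPM in XY ECKO against 709.5 and 819.8 CPM in XY Controls, so the groups overlapped in XX, and in XY both ECKO embryos were below both Controls. The part of these differences in the summed levels of the 7 genes was not tested, and the counts per cell given further on are also shown for cells with no interstitial marker.

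Adgra2 had 48.0 and 35.8 CPM in XX ECKO embryos A and B against 2.90 and 5.37 CPM in XX Controls A and B. In XY it had 21.1 and 64.6 CPM in ECKO embryos A and B against 0 and 1.34 CPM in Controls A and B, and the same order of embryos is kept below. All 4 ECKO embryos stood above all 4 Controls, and in XX Control B and XY Control B all Adgra2 counts came from 1 cell. Serpine2 had 84.1 and 20.2 CPM in XX ECKO against 16.1 and 4.93 CPM in XX Controls, and 28.6 and 66.1 CPM in XY ECKO against 12.9 and 4.06 CPM in XY Controls. It was the other gene of the 7 with no overlap over both sexes, which held for 5.71% of all genes.

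Ptprf had 44.7 and 214 CPM in XX ECKO against 15.9 and 71.3 CPM in XX Controls, and 75.7 and 218 CPM in XY ECKO against 18.1 and 11.3 CPM in XY Controls. XX Control B lay above XX ECKO A, and the XY groups did not overlap. Ptprs had 18.1 and 37.8 CPM in XX ECKO against 7.13 and 14.2 CPM in XX Controls, and 54.1 and 65.3 CPM in XY ECKO against 23.3 and 13.2 CPM in XY Controls. Within each sex its ECKO embryos were the higher ones. Sdc3 had 44.2 and 17.6 CPM in XX ECKO against 25.3 and 4.37 CPM in XX Controls, and 34.7 and 58.6 CPM in XY ECKO against 10.2 and 0 CPM in XY Controls. It overlapped in XX and not in XY, and its averaged log2 fold change was 2.13 (SE 1.13, edgeR adjusted p = 0.362).

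Amotl1 and Bend4, which code for proteins inside the cell, had the largest adjusted p-values of the 7 at E12.5. Amotl1 had 16.6 and 30.5 CPM in XX ECKO against 8.98 and 0 CPM in XX Controls, and 15.1 and 13.9 CPM in XY ECKO against 0.0738 and 14.95 CPM in XY Controls. The XY groups overlapped, and the averaged log2 fold change was 1.67 (SE 1.46, edgeR adjusted p = 0.624). Bend4 had 18.9 and 11.9 CPM in XX ECKO against 24.1 and 9.48 CPM in XX Controls, and 20.8 and 28.4 CPM in XY ECKO against 3.76 and 10.9 CPM in XY Controls. Its XX groups overlapped and its XY groups did not, with an averaged log2 fold change of 0.81 (SE 0.64, edgeR adjusted p = 0.578).

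Within XX, 0 of the 7 were called by edgeR, against 0.0143% of all genes called higher. Higher at an unadjusted p under 0.05 were 2 of the 7 in XX, against 7.84% of all genes, and DESeq2 called 1 (Adgra2), against 4.79%. Within XY, 0 were called by edgeR, against 0.00717% of all genes called higher. Higher at an unadjusted p under 0.05 were 4 of the 7 in XY, against 4.22% of all genes, and DESeq2 called 2 (Adgra2 and Ptprf), against 1.9%. ECKO embryos lay above both Controls for 4 of the 7 in XX and for 6 in XY, where 23.3% and 20.8% of all genes did so. Bend4 had a log2 fold change of -0.12 (SE 0.90) in XX and 1.74 (SE 0.93) in XY, and Adgra2 3.34 (SE 1.25) in XX and 5.94 (SE 1.43) in XY. Tested as an interaction by edgeR, the difference of the ECKO effect between the sexes was called for 0 of the 7 and for 0% of all genes. None of the 7 had an unadjusted p under 0.05 in that test, against 4.88% of all genes, and DESeq2 called none, against 0.953%. For the ECKO effect within XY, leaving out 1 embryo of either sex gave log2 fold changes of 2.36 to 3.86 for Ptprf. They were at least 4.93 for Adgra2 and at least 2.21 for Sdc3. Without XY Control B (Adgra2) and without XY Control A (Sdc3) the lone XY Control was at 0 CPM and the spread came from the other groups. The fold change of those fits has no meaning as a size and is not given.

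Single cells of ECKO embryos carried several of the 7 genes at once. A gene was scored as present in a cell at 10 CPM or more. ECKO cells held on average 4.15 and 3.46 of the 7 genes in XX embryos A and B and 4.28 and 4.44 in XY embryos A and B, against 1.43 and 1.69 in XX Controls A and B and 1.31 and 1.09 in XY Controls A and B. All 4 ECKO embryos were above all 4 Controls, at 4.08 ± 0.43 against 1.38 ± 0.25 genes per cell (SD over 4 embryos each). At least 3 of the 7 were present in 53 of 62 ECKO cells and 9 of 65 Control cells, and at least 5 in 27 ECKO cells and no Control cell. None of the 62 ECKO cells lacked all 7, while 14 Control cells did. Cells of 1 embryo are not replicates, so these pooled counts are a description.

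**Figure D3:**
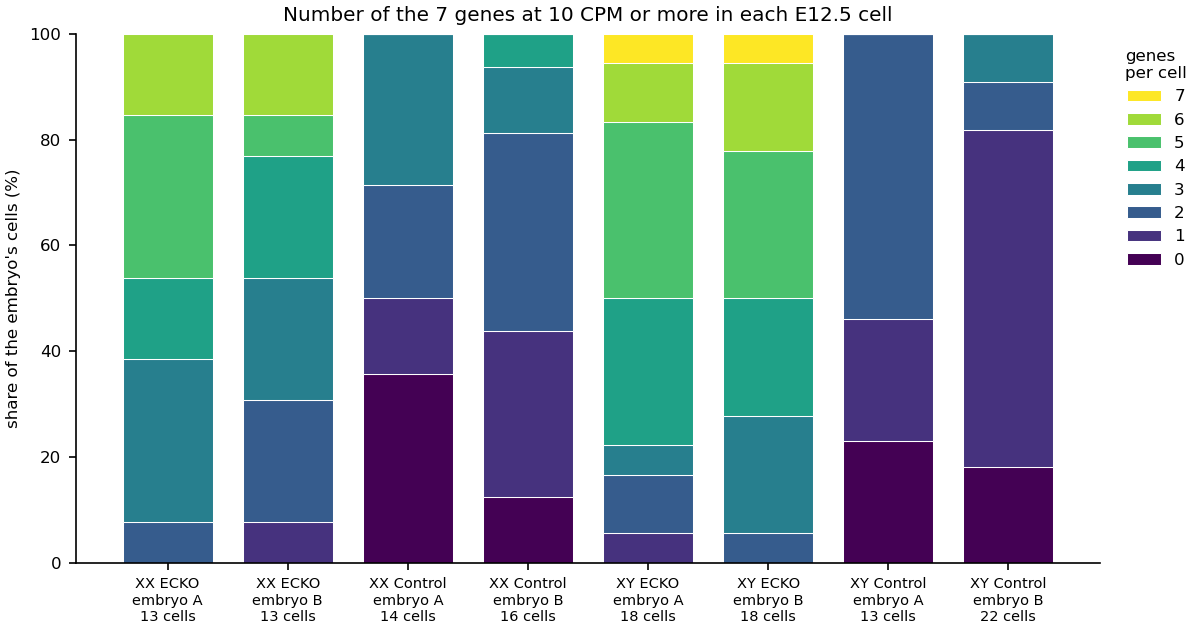
Share of each E12.5 embryo's cells, in percent, by how many of the 7 genes were present at 10 CPM or more, with ECKO embryos left of Controls of the same sex. Each bar is 1 embryo and the number of kept cells stands under it. At least 3 genes were present in 53 of 62 ECKO cells and in 9 of 65 Control cells.

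Depth did not separate the groups: the median counts of the kept cells were 1998464 and 1422489 in the XX ECKO embryos against 1981852 and 1638230 in XX Controls, and 1121573 and 1061911.5 in the XY ECKO embryos against 1087623 and 990910.5 in XY Controls. With each cell thinned to 50000 counts and any count scored as presence, the averages were 3.46, 3.23, 3.83 and 4.28 genes per cell in the 4 ECKO embryos against 1.64, 1.69, 0.92 and 0.95 in the 4 Controls, in the same order of embryos. The cells carried germ cell markers, with a median of 10 to 11 of 13 present per cell in ECKO embryos and 11 to 12 in Controls. The median number of interstitial markers was 0 of 15 in each of the 8 embryos. In the 51 ECKO and 57 Control cells with no interstitial marker present, the averages were 3.78, 3.30, 4.41 and 4.33 genes per cell in ECKO embryos against 1.5, 1.83, 1.36 and 1.09 in Controls. Fewer than 5 germ cell markers were present in 3 cells, all of XX ECKO embryos, 1 of which had 10 supporting and interstitial markers, and without these 3 the difference between ECKO and Control averages was 2.73 genes per cell, against 2.71 with them.

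The share of cells with a gene was higher in all 4 ECKO embryos than in all 4 Controls for 5 of the 7 genes. These were Adgra2, Bend4, Ptprs, Sdc3 and Serpine2, and the same held for 4.16% of all 13956 genes. In the thinned cells, with any count scored as presence, it held for Adgra2, Sdc3 and Serpine2, but Bend4 and Ptprs overlapped. No share over all genes is given for the thinned cells, and the 4.16% is for 10 CPM in unthinned cells, so nothing is read from that count. Bend4 was then present in 30.8% of cells of XX ECKO B, against 35.7% and 37.5% in XX Controls A and B. Ptprs was then present in 30.8% of cells of XX ECKO A, against 35.7% and 31.25% in the same Controls. Exact Clopper-Pearson 95% intervals are given in brackets below and cover the sampling of cells in 1 embryo only. Adgra2 was present in 8 of 13, 5 of 13, 8 of 18 and 7 of 18 cells in ECKO (XX A, XX B, XY A, XY B), and in 2 of 14, 1 of 16, 0 of 13 and 1 of 22 cells in Controls, which is 61.5% [31.6 to 86.1] in XX ECKO A and 6.25% [0.16 to 30.2] in XX Control B. The 0 of 13 cells in XY Control A, taken as at most 3 cells of the total, allows a share of up to 23.1% of cells with the gene at 10 CPM, which is no limit on cells that express it. Serpine2 was present in 13 of 13 cells of XX ECKO A, a share of 100% [75.3 to 100], and in 7 of 13, 12 of 18 and 12 of 18 cells of the other ECKO embryos, against 3 of 14, 1 of 16, 4 of 13 and 3 of 22 Control cells. Sdc3 was present in 6 of 13, 5 of 13, 11 of 18 and 13 of 18 cells of ECKO embryos, and in 3 of 14, 1 of 16, 2 of 13 and 0 of 22 in Controls, where the last allows up to 13.6%. Each of the 3 genes was present in 38.5% or more of the cells of each ECKO embryo and in at most 30.8% of the cells of any Control embryo.

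For the phosphatase receptors the shares in Controls reached higher. Ptprf was present in 16 of 18 and 17 of 18 cells of the XY ECKO embryos against 2 of 13 and 4 of 22 cells of XY Controls, but in XX the ECKO embryos had it in 8 of 13 and 10 of 13 cells, and the Controls in 4 of 14 and 11 of 16. The XX groups overlapped through Control B, at 68.8% [41.3 to 89.0], against 61.5% [31.6 to 86.1] in ECKO A. Ptprs was present in 8 of 13, 8 of 13, 15 of 18 and 13 of 18 cells of ECKO embryos, and in 3 of 14, 7 of 16, 6 of 13 and 5 of 22 in Controls. Bend4 was present in 9 of 13, 5 of 13, 9 of 18 and 12 of 18 cells of ECKO embryos, and in 3 of 14, 6 of 16, 3 of 13 and 6 of 22 in Controls, a narrow margin between XX ECKO B (38.5%) and XX Control B (37.5%). Amotl1 was present in 2 of 13, 5 of 13, 6 of 18 and 6 of 18 cells of ECKO embryos, and in 2 of 14, 0 of 16, 0 of 13 and 5 of 22 in Controls, and its shares overlapped.

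**Figure D4:**
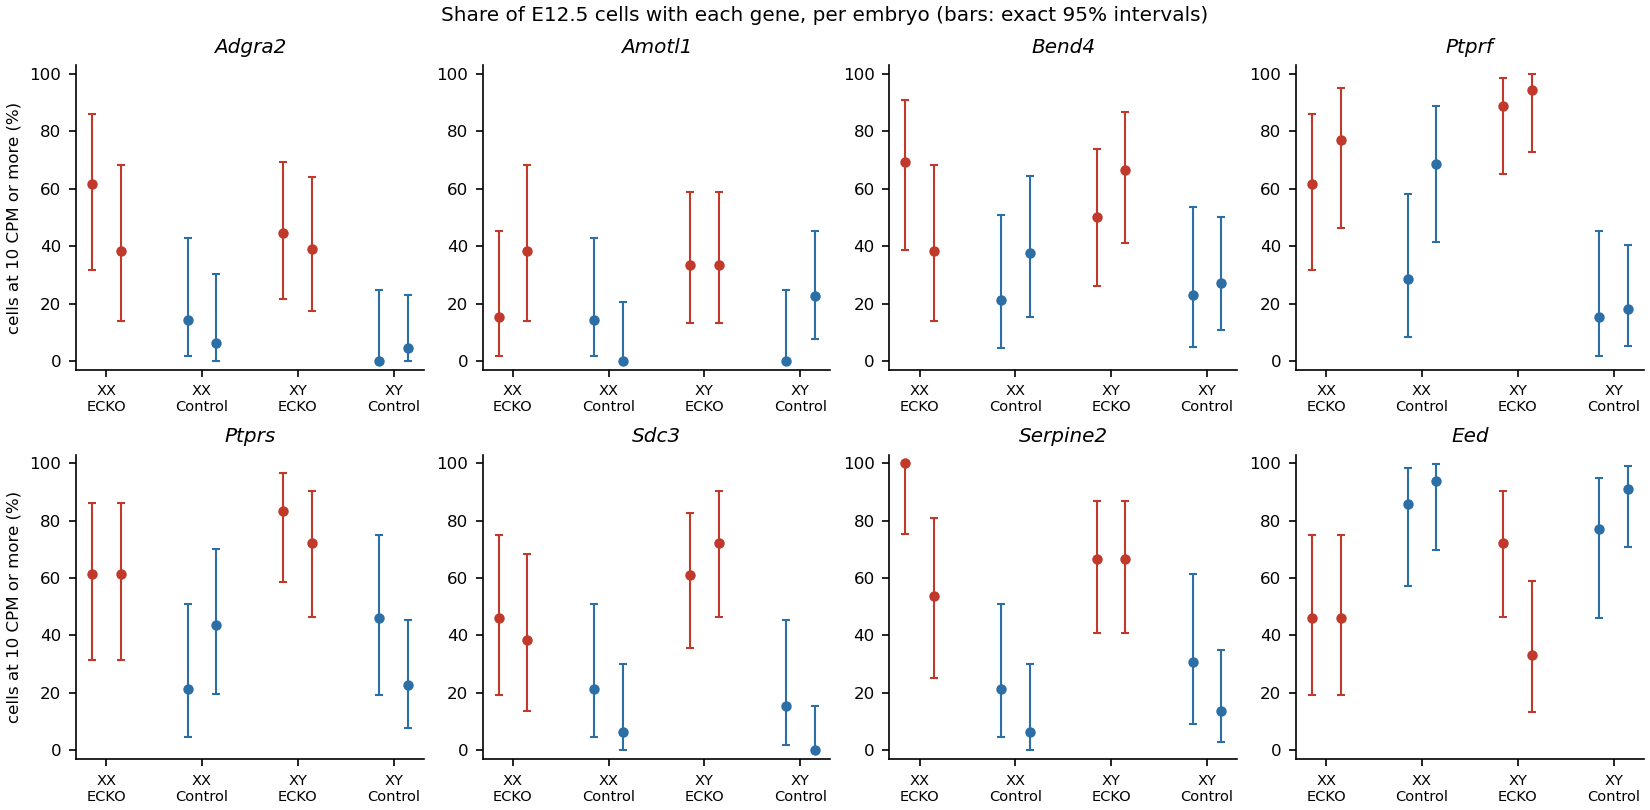
Share of E12.5 cells, in percent, with each of the 7 genes and Eed at 10 CPM or more, for each embryo (1 point, exact 95% interval as a bar), ECKO left of Control within each sex. Ptprf reached 88.9% and 94.4% of cells in the XY ECKO embryos against 15.4% and 18.2% in XY Controls. Eed was lower in each ECKO embryo than in any Control, at 33.3% to 72.2% against 76.9% to 93.8%.

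Eed was still present in 12 of 26 XX and 19 of 36 XY ECKO cells, against 27 of 30 XX and 30 of 35 XY Control cells, and the labels do not say whether the counted part of the gene is the deleted part. ECKO cells with Eed present held on average 4.17, 4, 4.15 and 3.83 of the 7 genes in the 4 embryos, and those without it 4.14, 3, 4.6 and 4.75. Depth differed between these cells in some embryos: the median counts of cells with Eed were 1954677.5, 1812172, 1460607 and 985771.5, against 2010791, 519485, 592039 and 1178964.5 in cells without it.

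The other 4 genes called higher in both E11.5 tables took different courses at E13.5. Tdrd1, a Tudor scaffold of the piRNA pathway, averaged 576 ± 252 CPM in E13.5 ECKO and 61.6 ± 36.9 CPM in Controls (SD, n = 3 and 4; edgeR adjusted p = 0.0053). Ccnd1 (cyclin D1) averaged 96.2 ± 18.5 CPM in ECKO and 19.8 ± 9.45 CPM in Controls (adjusted p = 0.0161), and Abca1, a cholesterol exporter, 109.9 ± 60.5 CPM in ECKO against 17.2 ± 11.3 CPM in Controls (adjusted p = 0.0414). Hand1, a transcription factor of mesoderm and trophoblast, had 5.11, 0 and 0 CPM in ECKO against 0, 0.40, 0 and 1.05 CPM in Controls at E13.5 and was not tested there. At E12.5, averaged over the sexes, Hand1 was called higher by edgeR (adjusted p = 0.0422), with most of its counts in XX: 92.6 and 17.7 CPM in XX ECKO against 5.36 and 7.72 CPM in XX Controls, and 4.86 and 3.09 against 0 and 0 CPM in XY.

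Close relatives of the 7 genes mostly did not pass the test, as was so for most genes tested. Low counts left Adgra1 untested in all comparisons, Bend6 in all but E13.5, and Amotl2 and Bend7 in E11.5 XX. Of 13 paralogs, Sdc1 was called at E13.5, where it fell by 3.64 on the log2 scale (SE 0.66, edgeR adjusted p = 0.0135), with 1.90 to 5.15 CPM in ECKO against 29.5 to 59.4 CPM in Controls, where the log2 fold change of Sdc3 was -0.20. At E13.5, 604 of 12336 genes were called in either direction. No paralog tested was called at E11.5 or in the averaged E12.5 fit. Over all genes, 266 of 12497 were called there in E11.5 XY, 19 of 11058 in E11.5 XX and 75 of 13956 at E12.5, so few calls say little about the paralogs. Ptprd, the remaining phosphatase of the Ptprf family, had positive log2 fold changes of 2.41 in E11.5 XY (adjusted p = 0.116), 2.61 in E11.5 XX (0.360) and 2.50 in E13.5 XY (0.135). Sdc4 had 0.65, 0.92 and 1.23 in the same order (adjusted p = 0.102, 0.231 and 0.114). Amot had 0.14, 0.41 and 0.76 (adjusted p = 0.899, 0.573 and 0.215), and Adgra1 had at most 0.159 CPM in any bulk library.

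Companion lists of the 7 genes, chosen with earlier results of these data known, were described by counts, with calls by edgeR. Of all genes tested, 1.51% were called higher in E11.5 XY, 0.136% in E11.5 XX, 0.437% in the averaged E12.5 fit and 2.99% at E13.5. Among 25 companions of the LAR-type phosphatases, 0 of 15 tested were called in E11.5 XY and 1 of 13 at E13.5, Trio, a binding partner of LAR, which averaged 105 ± 16.8 CPM in ECKO and 11.6 ± 7.04 CPM in Controls. The list's median log2 fold change was 0.90 and 0.93 in these, against 0.0016 and 0.049 over all genes. In the same order the median was 0.53 and 0.43 for the heparan sulphate list and 0.075 and -0.077 for the Hippo list. It was 0.29 and 0.12 for the Wnt list, 0.91 and 1.62 for the Serpine2 list and 0.38 and -0.062 for the BEN domain list. Among heparan sulphate proteoglycans and their enzymes, Hspg2 (perlecan) rose in E11.5 XY (141 ± 44.2 CPM in ECKO and 54.5 ± 11.97 CPM in Controls) and at E13.5 (85.1 ± 45.3 and 8.44 ± 6.96 CPM), the only one called higher of 26 and 25 tested. Of the Hippo list, Tead2, a transcription factor partner of Yap1, was the 1 of 22 called at E13.5, at 11.2 to 46.8 CPM in ECKO against 0 to 1.83 CPM in Controls. Of the Serpine2 list, F2rl1 (a protease-activated receptor) and Lrp1 (an endocytic receptor of protease and inhibitor complexes) were the 2 of 18 called in E11.5 XY, both higher. Lef1, a transcription factor of Wnt signalling, was lower in E11.5 XY (60.2 ± 5.09 CPM in ECKO and 107 ± 12.52 CPM in Controls) and in the averaged E12.5 fit, where Wnt7b was higher (7.06 to 23.3 CPM in ECKO against 0 to 0.0738 CPM in Controls). Of the BEN domain list Nacc2 was the 1 of 6 called in E11.5 XY, and it was higher. No list gene was called in E11.5 XX, and none of the 5 other PRC2 core genes in any of these comparisons.

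Over the 22 bulk libraries and 10483 genes, the genes most like the mean profile of the 7 were Foxa1 (Pearson's r = 0.93), Ccnd1 (0.89), Krt8 (0.88), Stx2 (0.86) and Itpr2 (0.86), as a description across libraries that share genotype groups. These libraries include the E11.5 ones on which the 7 were chosen, and Ccnd1 was itself called higher in both E11.5 tables. Foxa1, a transcription factor, was low throughout, at 1.58 to 3.78 CPM in E11.5 XY ECKO against 0 to 0.391 CPM in Controls. At E12.5 Foxa1 had 0.962 to 5.49 CPM in XX ECKO against 0 CPM in XX Controls, but 0 CPM in XY ECKO against 0 to 0.517 CPM in XY Controls. Krt8, a keratin, had 5.17 to 29.6 CPM in E11.5 XY ECKO against 0.0645 to 2.64 CPM in Controls, and 29.8 to 75.5 CPM in E12.5 ECKO embryos against 0 to 8.93 CPM in Controls.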

How the data were processed

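RNA of sorted mouse PGCs was sequenced in bulk (Ovation RNA-seq V2, 22 libraries) or as single cells (Smart-seq2, 192 cells), per the labels. The deposited values are raw counts per gene symbol made by the authors, with HISAT2, edgeR and build mm9 named in the submitters' processing notes. For the counting program, the annotation and the use of strand, none is given in the sources used here, and whole-genome bisulfite samples of the series were not analysed here. Counts were scaled by TMM and tested per table with edgeR 4.0.16 (R 4.3.3), using filterByExpr, the quasi-likelihood test and Benjamini-Hochberg adjustment over all genes tested, with a threshold of 0.05. DESeq2 1.42.0 and limma 3.58.1 served as alternatives. The method was also tested on simulated data.

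At E12.5, cells with at least 50000 counts and 1500 detected genes were summed per embryo. The embryo came from the deposited column headers and the genotype from the sample titles, and 1 XX cell titled ECKO carries a wild type genotype label. The 65 cells left out had at most 42630 counts. No doublet caller was run, since each cell was sorted into its own library. Intervals and limits of 0, taken as 3 cells of the total, cover sampling error only. No pair of libraries within a group agreed within sampling noise.

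The genes named are the 7, Eed, the other 4 genes raised in both E11.5 tables, 13 paralogs, genes called from the companion lists (at most 3 per comparison) and the 5 genes most like the 7. The 7 genes and all lists were chosen with earlier results of these data known.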

Additional observations from a re-analysis of the deposited data

Results flagged for a closer look

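Each group of 4 bulk libraries was searched for a library far from the other 3, in 28 combinations of a gene and a group. The rule marks about 1 in 20 by chance only where values are normally distributed, which was not checked for CPM. The search found 4, each the highest of its group. No rate over all genes is given, so this number is not read as an excess. Amotl1 had 186.9 CPM in E11.5 XX ECKO 4, against 62.7 to 77.1 CPM in the other 3 ECKO libraries. Ptprs had 311.5 CPM in the same library, against 102 to 133 CPM in the others. That library also held the highest summed interstitial markers of its table (1519 CPM), and their part in both values was not tested. Adgra2 had 13.8 CPM in E11.5 XY Control 1, against 1.74 to 2.04 CPM in the other 3 Controls, and the summed interstitial markers were 156 CPM there against 44.5 to 50.4 CPM. Adgra2 had 98.2 CPM in E13.5 XY Control 3, against 11.1 to 22.1 CPM in the other 3 Controls, in the library with counts for the fewest genes (11716).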

How the results depend on the processing

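At E13.5, 2 of the 7 genes were called. The count was 5 with ECKO 1 and Control 3 left out together (chosen after seeing the data) and 1 to 3 with 1 library left out. Over all genes the first of these fits called 3754 and the others 94 to 2141. With the replicate number as a block, over the libraries numbered 1 to 3, 0 of the 7 were called (Ptprf 2.13, adjusted p = 0.100, and Serpine2 3.40, adjusted p = 0.0738, by edgeR). That fit called 26 of 11961 genes, against 604 of 12336 in the main fit, so the loss is not particular to the 7. Same-numbered libraries had correlations of deviations from -0.14 to 0.17, so the numbers name libraries and do not pair them. The E11.5 medians were 1.88 in XY and 2.28 in XX under the replicate block, and 1.84 to 2.00 and 2.34 to 2.63 with 1 library left out. No paired analysis was possible because, at E12.5, the embryo identifiers cannot be matched to the numbers in the titles, and only XX ECKO A and XX Control A share the first part of their identifier, 1 pair where a block needs 2. In the averaged E12.5 fit 0 of the 7 were called by edgeR, against 4 by DESeq2, 4 with no filter on low counts, 1 with cells thinned to 50000 counts and 1 by limma on mean CPM. Within XX the count was 1 by DESeq2 and 1 with no filter, and within XY it was 2 and 2. For the sex difference DESeq2 called 0. With presence at 1 CPM the ECKO minus Control difference was 3.18 genes per cell, against 2.71. Signs turned only for values that did not pass the test: E13.5 Sdc3 (-1.06 to 0.18 with 1 library left out), E12.5 XX Bend4 (0.0015 thinned, -0.63 to 0.70 with 1 embryo left out), E12.5 XY Amotl1 (-0.019 to 7.53, the highest against a lone Control embryo at 0.0738 CPM), and the sex differences of Serpine2 (-1.56 to 0.92, above 0 at 0.45, 0.52, 0.56 and 0.92), Ptprs (-0.94 to 0.26, above 0 at 0.052, 0.10 and 0.26) and Amotl1 (-5.12 to 11.05). The cause was not tested. Over all genes, 604 were called at E13.5 (26 to 3754 over the alternatives, 1696 by DESeq2) and 75 in the averaged E12.5 fit (48 to 1287). Scaling by library totals moved the median of all genes at E13.5 to 0.28, against 0.049 with TMM, and at E12.5 to 0.24 against 0.14. Depth limits E11.5 XX most, where Control 1 held 415291 counts.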
